A study of Mus musculus with 2 samples.

Results

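The guidance genes examined here are the semaphorins of classes 3 to 7, plexins, neuropilins, ephrins, Eph receptors, Slits, Robo receptors, netrins and Unc5 receptors of the mouse, measured by single-cell RNA sequencing of liver. They were chosen by symbol: 67 of the 31053 genes in the files carried a name of these families, and the 53 with at least 20 UMIs (unique molecular identifiers, each standing for 1 captured transcript) over both libraries were kept. The 53 comprised 17 semaphorins, 8 plexins, 2 neuropilins, 6 ephrins, 10 Eph receptors, 2 Slits, 4 Robo receptors, 2 netrins and 2 Unc5 receptors. The other 14 held 0 to 17 UMIs. Sema7a, the ligand of plexin C1, lay just outside with 17 UMIs, and Sema3e, the ligand of plexin D1, held 9. Sema4f and Ephb1 lay just inside with 20 UMIs each.

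Each group was 1 library from a mixed suspension of hepatocytes and non-parenchymal cells of C57BL/6 liver. The pIVCL library came from mice with a partial ligation of the inferior vena cava, an operation that narrows the large vein draining the liver and so congests the organ, done at 8 to 10 weeks of age and kept for 6 weeks. The Control library carries the genotype label Control, and its title calls it healthy. The protocol text of both samples describes the ligation, so the grouping rests on the label and title. A sham operation and the number of animals per library are not given in the sources used here. With 1 library per group there is no replicate check and no test of any difference between the libraries. Intervals below are 95% intervals that cover counting error only.

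Guidance genes were first described for steering growing axons, and the same ligand and receptor pairs act between cells of blood vessels. Semaphorins signal through plexins, and the secreted class 3 members use neuropilins as co-receptors, which also bind VEGF. Ephrins and Eph receptors signal between touching cells in both directions, and ephrin-B2 marks arterial while EphB4 marks venous endothelium. Slits bind Robo receptors and netrins bind Unc5 receptors. The liver sinusoid is lined by sinusoidal endothelial cells (LSECs), with stellate cells wrapped around them and Kupffer cells inside.

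The Control library held 3574 barcodes and the pIVCL library 7042, of which 2718 and 5443 were kept as cells, with median depths of 5264 and 2005 UMIs. The libraries shared 13 barcode sequences. Of 28 clusters, made without the guidance genes, 26 could be named from marker genes, and the unnamed cells numbered 161 in Control and 1108 in pIVCL. Between the libraries, 7 classes with at least 50 cells in each were compared. Levels are UMIs summed over a class and divided by the class total, expressed as CPM, a count scaled to a common class total. Because a UMI counts a molecule once whatever its length, CPM values of different genes were set side by side without a length correction. A gene was measured in a class with at least 20 summed UMIs, and was counted as past the 2-fold limit where (pIVCL CPM + 20) / (Control CPM + 20) was at least 2 or at most its inverse.

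The 4 promoters shown belong to 2 receptor genes that were lower in LSEC-like cells of the pIVCL library (Nrp1 and Plxnc1) and 2 ligand genes that were higher (Ntn4 and Efnb2). Each line is the 250 bases before a RefSeq start site, in GRCm38.p6, 5′ to 3′ on the gene's own strand. Both strands were searched for 4 motifs, and capitals mark the matches. The motif of the GATA factors, which act in LSEC identity, was AGATAA. That of the KLF factors, which respond to blood flow, was CCACCC. The ETS factors of endothelium were searched as CCGGAA, and the stress-responsive AP-1 complex as TGACTCA. No 2 matches overlapped in the sequences shown.
Nrp1, chr8:128358823-128359072, plus strand: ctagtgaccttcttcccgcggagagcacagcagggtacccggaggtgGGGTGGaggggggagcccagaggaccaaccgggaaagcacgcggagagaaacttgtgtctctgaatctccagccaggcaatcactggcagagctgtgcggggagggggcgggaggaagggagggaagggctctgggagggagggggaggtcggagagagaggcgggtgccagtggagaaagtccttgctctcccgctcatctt
Plxnc1, chr10:94944846-94945095, minus strand: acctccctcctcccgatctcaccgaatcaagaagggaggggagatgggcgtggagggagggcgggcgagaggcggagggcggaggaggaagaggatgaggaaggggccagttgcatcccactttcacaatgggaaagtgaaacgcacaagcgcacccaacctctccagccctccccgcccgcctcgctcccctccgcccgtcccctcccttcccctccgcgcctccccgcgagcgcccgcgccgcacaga
Ntn4, chr10:93640799-93641048, plus strand: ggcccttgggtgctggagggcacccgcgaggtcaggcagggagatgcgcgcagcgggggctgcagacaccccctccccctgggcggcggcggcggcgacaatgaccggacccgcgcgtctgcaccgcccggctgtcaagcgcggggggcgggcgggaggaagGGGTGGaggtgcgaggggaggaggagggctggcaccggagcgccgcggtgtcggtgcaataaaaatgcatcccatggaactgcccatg
Efnb2, chr8:8661243-8661492, minus strand: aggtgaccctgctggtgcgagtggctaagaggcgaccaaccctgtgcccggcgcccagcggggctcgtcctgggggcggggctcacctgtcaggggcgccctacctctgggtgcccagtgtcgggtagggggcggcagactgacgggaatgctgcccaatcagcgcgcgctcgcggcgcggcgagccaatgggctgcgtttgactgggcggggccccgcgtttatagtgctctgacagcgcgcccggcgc
Nrp1 and Ntn4 each held 1 match, both to CCACCC on the opposite strand, at 203 to 198 and at 88 to 83 bases before the RefSeq start. In the GENCODE annotation these genes start further upstream, at 128358604 and 93640681, so both windows lie inside the annotated genes. Plxnc1 and Efnb2 held none of the 4 motifs in these windows. Over the 32851 promoters of the RefSeq table, CCACCC was present in 28.1%, AGATAA in 9.99%, CCGGAA in 12.0% and TGACTCA in 4.46% of the same 250-base windows. The table matched 47 of the 53 guidance genes, with 62 promoters, of which 51.6% held CCACCC, 4.84% AGATAA, 11.3% CCGGAA and 3.23% TGACTCA. Guidance promoters also had a higher base composition of G and C, at a median of 64.4% against 52.4% for all promoters, and its part in the CCACCC share was not tested. Of the 4 promoters shown, 1 of each pair thus held a CCACCC match.

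Among the 7 compared classes, the highest summed levels of guidance genes were in endothelial and stellate-like cells. The 53 genes summed to 6991 CPM in LSEC-like cells of Control and 4969 CPM in pIVCL. They reached 5715 and 4214 CPM in vascular endothelial-like cells, and 3300 and 2883 CPM in hepatic stellate-like cells. Kupffer-like cells stood at 962 and 712 CPM, hepatocyte-like cells at 539 and 484 CPM, T cell-like cells at 259.6 and 314 CPM, and B cell-like cells at 164 and 197 CPM. Some smaller classes also had high sums, such as lymphatic endothelial-like (3507 and 2858 CPM) and mesothelial-like cells (2669 and 2614 CPM). Cholangiocyte-like cells were at 831 and 1262 CPM and plasmacytoid dendritic-like cells at 975 and 1396 CPM. Among classes of at least 50 cells, the class with the highest level was the same in both libraries for 31 of the 53 genes. The classes large enough to count differed between the libraries, and 13 genes were led in pIVCL by a class with too few cells in Control. Over the 7 classes large enough in both, 38 of the 53 genes had the same leading class. In Control, 19 genes had their highest level in stellate-like, 12 in LSEC-like and 12 in vascular endothelial-like cells. No UMI minimum was set for the leading class in these counts, those of 31 and 38 genes included. In Control, Slit3 counted as stellate-like at 0.830 CPM and Sema3b as LSEC-like at 0.160 CPM. Efna4 and Ephb1 counted as vascular endothelial-like at 1.05 and 2.11 CPM. Most Control UMIs of these genes in kept cells were in mesothelial-like (Slit3, Ephb1) or cholangiocyte-like cells (Sema3b, Efna4), classes under 50 cells there.

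**Figure D1:**
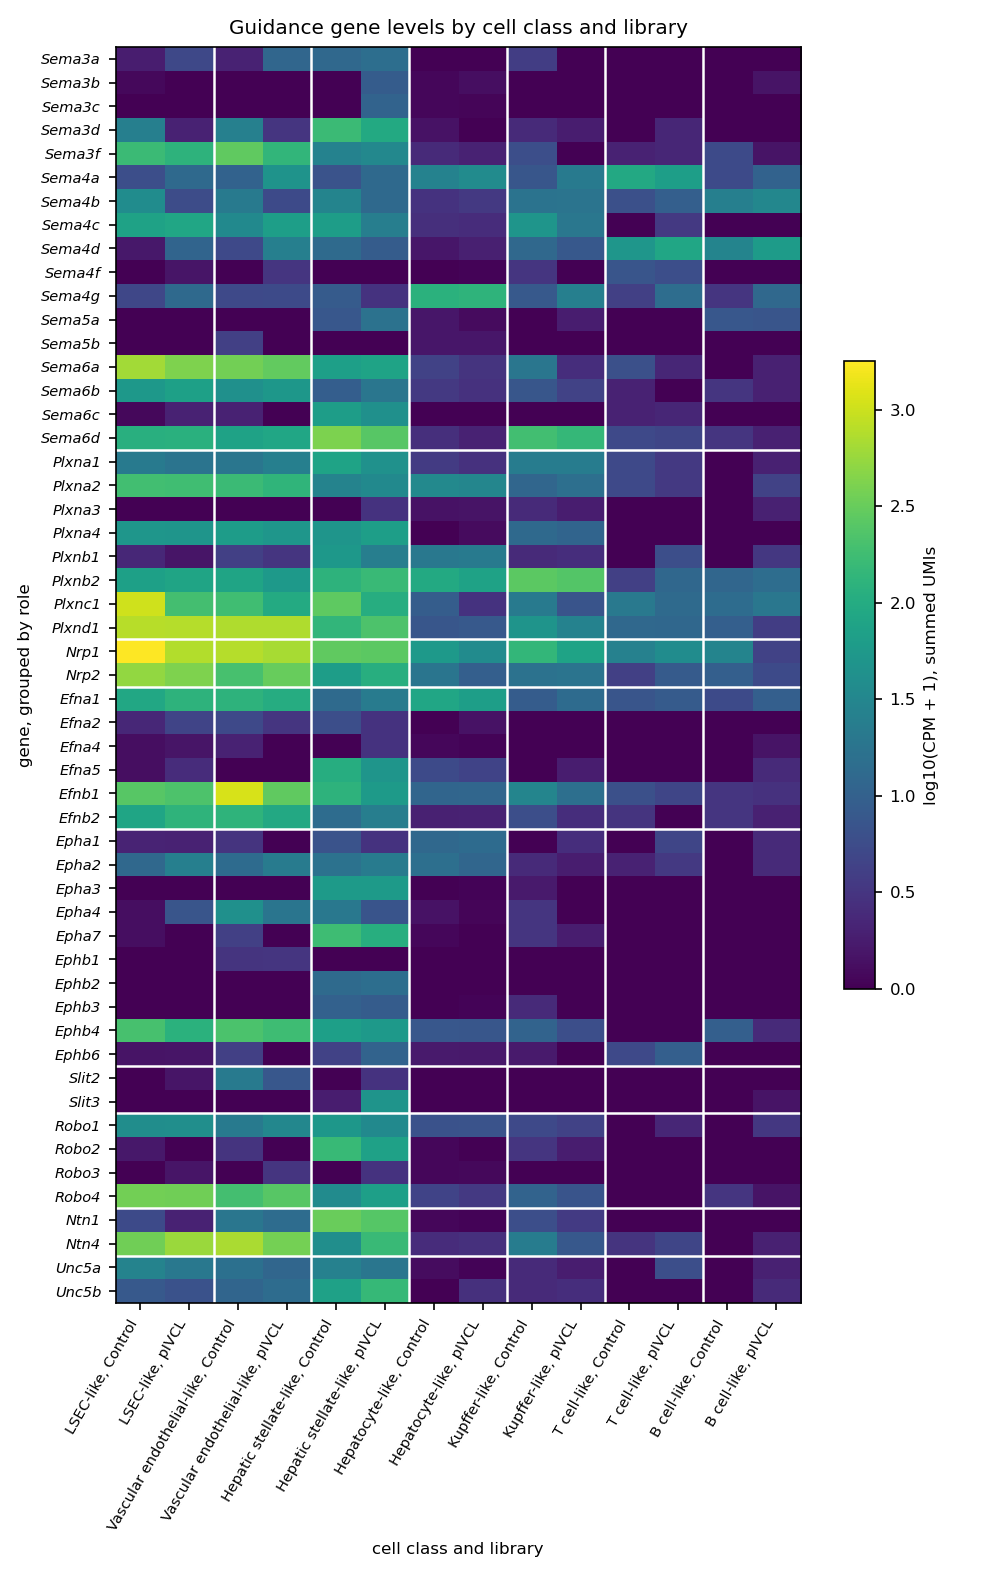
Levels of the 53 guidance genes (rows, grouped by role, with white lines between roles) in 7 cell classes, Control and pIVCL side by side, as log10(CPM + 1) of summed UMIs in 1 library each. The bright rows in the endothelial columns are Nrp1, Plxnd1, Plxnc1, Sema6a, Efnb1 and Ntn4, while Sema6d, Ntn1, Robo2, Epha3 and Epha7 stand out in stellate-like cells and Sema4g in hepatocyte-like cells.

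LSEC-like cells held the highest summed level of the family, with plexins and neuropilins the most abundant roles. Nrp1, the co-receptor of class 3 semaphorins and VEGF, stood at 1786 CPM in Control and 754 CPM in pIVCL. Plxnc1, a receptor for semaphorin 7A, stood at 1032 and 191 CPM, and Plxnd1, which binds semaphorin 3E, at 787 and 785 CPM. Nrp2, the second neuropilin, was at 533 and 418 CPM, and Plxna2, a partner of neuropilins in class 3 semaphorin signalling, at 183 and 180.4 CPM. The most abundant semaphorin of this class was Sema6a, a transmembrane ligand of A-type plexins, at 628 and 423 CPM. Robo4, the endothelial member of the Robo family, was at 363 and 352 CPM. Of these receptors, Nrp1 and Plxnc1 were far apart between the libraries. Plxnd1 and Robo4 had ratios of 0.997 (0.941 to 1.06) and 0.968 (0.887 to 1.05), with intervals that included 1, and Plxna2 was at nearly equal levels. Nrp2 lay between, modestly lower in pIVCL with an interval, given below, that left out 1.

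Of the 53 genes, 29 were measured in LSEC-like cells (1108 cells in Control, 577 in pIVCL). Of the 29, 4 (13.8%) were past the 2-fold limit and lower in pIVCL, beside 1.13% of the 11093 genes measured in that class, and 0 were past it and higher, beside 2.03%. Here and in the other classes, the shares over all measured genes were not matched for level. A gene under 20 CPM in Control could not pass the limit as lower. The median log2 ratio of the 29 was -0.04, and that of all measured genes was -0.01. So the middle of the family lay near equal levels, and 4 members lay past the limit. Plxnc1 (ENSMUSG00000074785, protein-coding, chromosome 10, 94790866 to 94944835, minus strand in GRCm38) held 6469 and 371 UMIs, the lower number in pIVCL, for a ratio of 0.185 (interval 0.166 to 0.206). Nrp1 (ENSMUSG00000025810, protein-coding, chromosome 8, 128358604 to 128503363, plus strand) held 11194 and 1463 UMIs, a ratio of 0.422 (0.400 to 0.446). Sema4b, a transmembrane class 4 semaphorin, went from 37.0 CPM (232 UMIs) in Control to 4.64 CPM (9 UMIs) in pIVCL. Sema3d, a secreted class 3 semaphorin, was at 24.7 CPM from 155 UMIs in Control, while pIVCL held 2 UMIs, a ratio of 0.0417 (0.00500 to 0.153). The class totals behind these values were 6267581 UMIs in Control and 1939974 in pIVCL.

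Several genes inside the 2-fold limit had a counting interval that left out equal levels. Ntn4, a netrin of basement membranes, was at 347 CPM in Control and 577 CPM in pIVCL, a ratio of 1.67 (1.55 to 1.79). Efnb2, the ligand that marks arterial endothelium, was at 79.6 and 131 CPM, a ratio of 1.65 (1.41 to 1.92). Its receptor Ephb4, the venous marker, differed the other way, at 199 and 118 CPM with a ratio of 0.593 (0.513 to 0.683). Efna1 was at 88.7 and 126 CPM and its receptor Epha2 at 11.5 and 24.7 CPM. Sema3f, a ligand of neuropilin 2, was at 163 and 126 CPM, Sema6a had a ratio of 0.673 (0.624 to 0.726) and Nrp2 of 0.784 (0.725 to 0.847). Of these genes, Ntn4, Efnb2, Efna1 and Epha2 were thus higher in pIVCL, and Ephb4, Sema3f, Sema6a and Nrp2 lower.

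**Figure D2:**
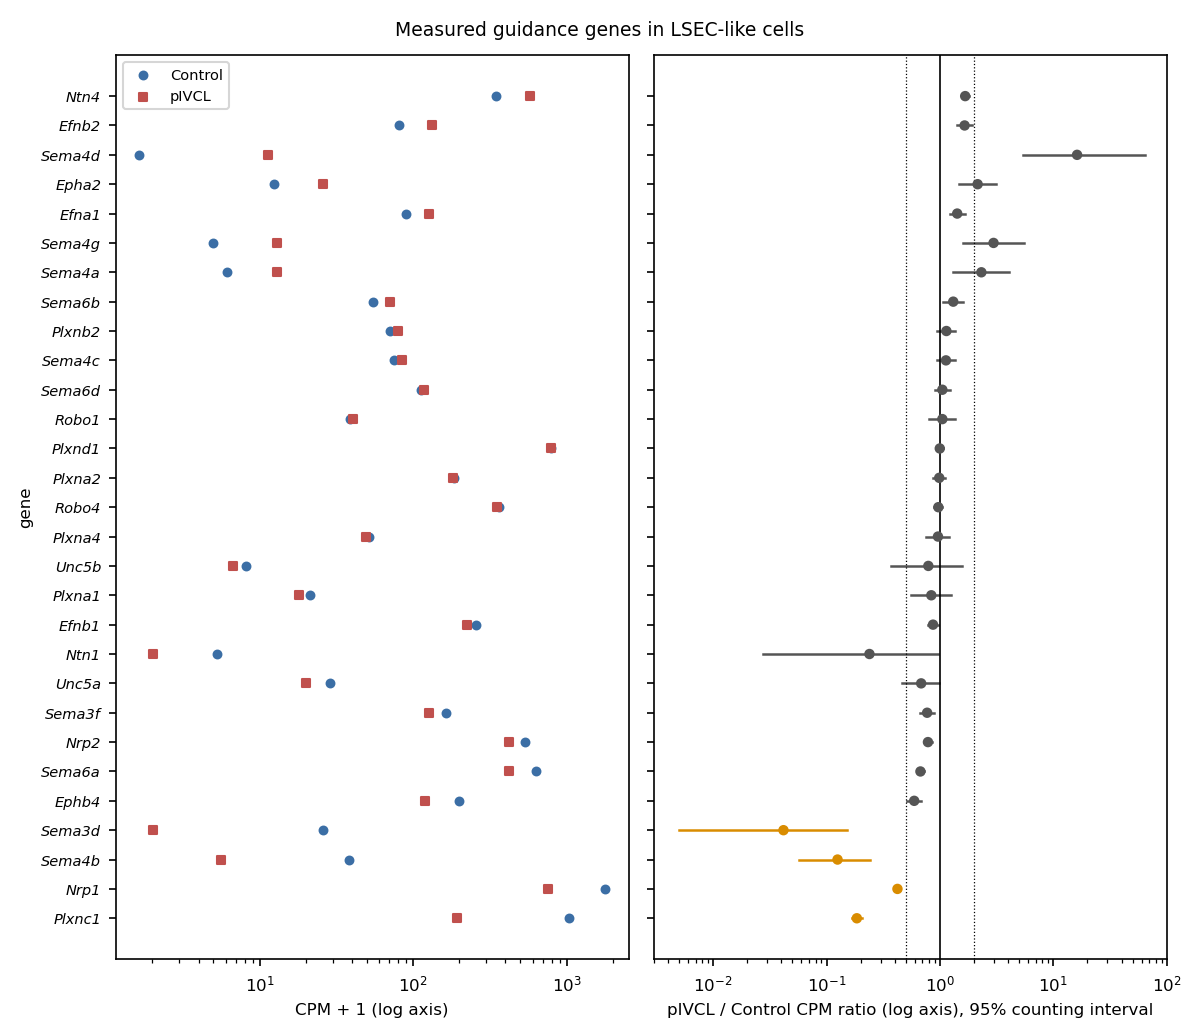
The 29 guidance genes measured in LSEC-like cells: CPM + 1 in Control (circles) and pIVCL (squares) on the left, and the pIVCL over Control ratio with its 95% counting interval on the right, both on log axes. Orange marks the 4 genes past the 2-fold limit after 20 CPM is added, all lower in pIVCL. Dotted lines show ratios of 0.5 and 2 without that addition, so a few low genes such as Sema4d lie beyond them in grey.

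The share of cells with a transcript moved with these levels. With each cell thinned to 1000 UMIs, which left out 170 shallower LSEC-like cells of Control and 89 of pIVCL, Plxnc1 was seen in 59.6% (56.4 to 62.8) of LSEC-like cells in Control and 14.8% (11.7 to 18.2) in pIVCL. Unthinned, the shares were 80.3% and 37.1%. Nrp1 was seen in 78.8% and 51.8% of thinned cells, and in 83.8% and 75.9% unthinned. For Efnb2 the thinned shares were 6.40% (4.92 to 8.16) and 16.6% (13.4 to 20.2), against 26.4% and 30.7% unthinned. Ntn4 was seen in 26.5% and 38.1% of thinned cells. Plxnd1 (51.2% and 55.1%) and Robo4 (29.1% and 27.5%) had overlapping intervals. In thinned hepatocyte-like cells, which should hold little of these genes and had median depths of 23080 and 19710 UMIs before thinning, Plxnc1 was seen in 1.61% and 0.714%, and Nrp1 in 4.19% and 4.29%. Median depths of LSEC-like cells were 6320 and 3091 UMIs.

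Most LSEC-like cells of Control were in cluster 3 (791 of Control against 9 of pIVCL), and most of pIVCL were in cluster 6 (417 against 9 of Control). Only the shallow cluster 5 had many cells of both, 308 and 151, with median depths of 938 and 921 UMIs. Within cluster 5 alone Plxnc1 was at 619 CPM in Control and 106 CPM in pIVCL (ratio 0.171, 0.0981 to 0.281) and Nrp1 at 966 and 480.2 CPM (0.497, 0.383 to 0.638). There Ntn4 was at 129 and 287 CPM and Efnb2 at 33.6 and 99.8 CPM. Plxnc1 was past the limit and lower in that cluster and Nrp1 was just inside it, while Ntn4, Efnb2 and Efna1 (30.8 and 131 CPM) were past it and higher. Without cluster 5 the ratios were 0.188 for Plxnc1, 0.424 for Nrp1, 1.68 for Ntn4 and 1.63 for Efnb2. The 8 LSEC marker genes, the identity genes of the class, summed to 17279 CPM in Control and 8481 CPM in pIVCL. The 8 leukocyte genes summed to 61.4 and 1084 CPM in these cells, with 7 of 8 past the limit and higher in pIVCL. In LSEC-like cells without any leukocyte-list UMI (932 and 411 cells) the ratios were 0.186 for Plxnc1, 0.446 for Nrp1, 1.81 for Ntn4 and 1.88 for Efnb2, so they were about as far from 1. Sema3d, at 22.6 CPM (115 UMIs) and 1.68 CPM (2 UMIs) there, no longer passed the limit. The 13 dissociation stress genes summed to 4845 and 10543 CPM, with 9 of 13 past the limit and higher, and 8 hepatocyte transcripts, a measure of free RNA, to 5563 and 9120 CPM. Their part in the guidance gene differences was not tested.

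**Figure D3:**
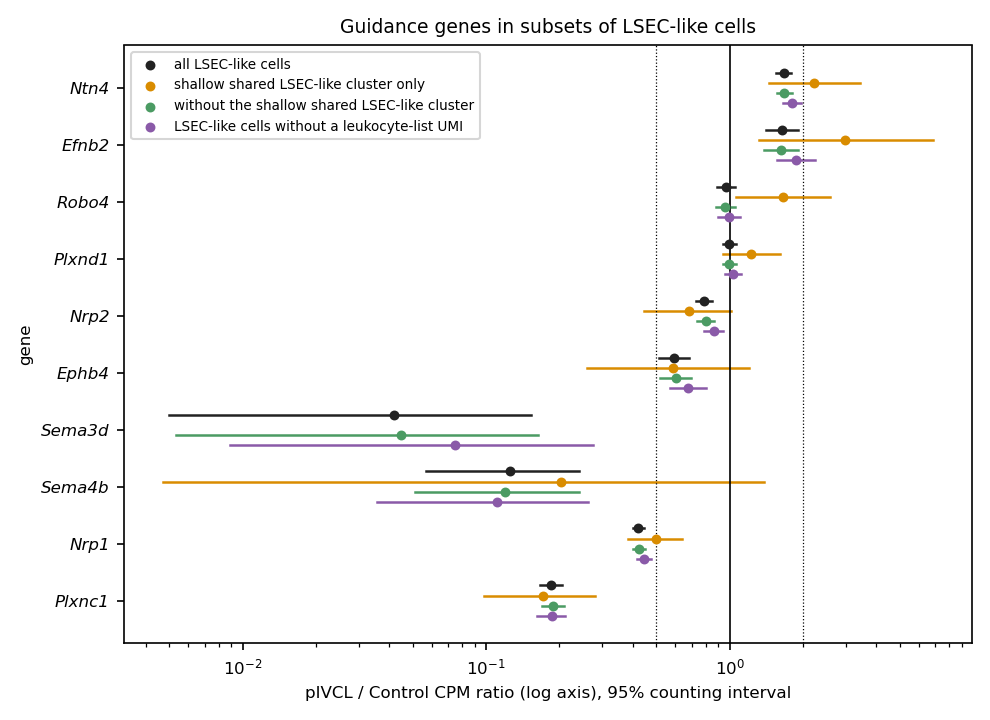
The pIVCL over Control ratio of 10 guidance genes in all LSEC-like cells, in the shallow shared cluster, without that cluster, and in cells without a leukocyte-list UMI, with 95% counting intervals on a log axis. Plxnc1 and Nrp1 lie left of 1 and Ntn4 and Efnb2 right of 1 in each subset. Sema3d is not drawn for the shallow cluster, where pIVCL held none of its UMIs.

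Within LSEC-like cells, some guidance genes differed between cells leaning to pericentral and to periportal marker genes. Cells were split by whether their UMIs of 8 pericentral endothelial genes (such as Wnt2, Rspo3 and Kit) outnumbered those of 8 periportal genes (such as Dll4, Ltbp4 and Msr1), which gave 392 pericentral-leaning and 605 periportal-leaning cells in Control and 107 and 374 in pIVCL. Ntn4 was at 131 CPM in pericentral-leaning and 498 CPM in periportal-leaning cells of Control, a ratio of 0.264 (0.233 to 0.297), and at 221 and 709.5 CPM in pIVCL, a ratio of 0.312 that became 0.522 when each zone gene was scaled to its own mean. Efnb2 had ratios of 0.285 (0.221 to 0.364) and 0.373 (0.236 to 0.567), and Efnb1, another B-type ephrin, of 0.329 (0.288 to 0.374) and 0.238 (0.157 to 0.347). These ligands were therefore higher in periportal-leaning cells of both libraries. Ephb4 leaned slightly the other way, with a ratio of 1.16 in Control, and had an interval that included 1 in pIVCL (1.14, 0.829 to 1.55). Robo4 (1.04 and 0.918) and Nrp2 (1.03 and 0.877) had intervals that included 1 in both libraries. The periportal list also held Ly6a and Adgrg6, which led vascular cluster 18, described below, where Ntn4, Efnb2 and Efnb1 were high. At a finer clustering, vascular-named clusters held 126 and 30 Control cells and 22 and 22 of pIVCL, against 109 and 75 in the main vascular class. Whether vascular cells within the LSEC-like class had a part in the zone ratios was not tested.

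For some receptors the zones differed between the libraries. Plxnc1 was at 1202 CPM in pericentral-leaning and 933 CPM in periportal-leaning cells of Control, a ratio of 1.29 (1.23 to 1.35). In pIVCL it was at 165 and 206 CPM, a ratio of 0.801 (0.609 to 1.04). Its pIVCL over Control ratio was 0.137 in pericentral-leaning and 0.221 in periportal-leaning cells. Plxnd1 was lower on the pericentral side in Control, with a ratio of 0.640 (0.602 to 0.681), and at 0.883 (0.776 to 1.00) in pIVCL. Sema3d leaned pericentral in Control, with 113 UMIs (46.5 CPM) in pericentral-leaning and 31 UMIs (8.43 CPM) in periportal-leaning cells. Its 2 UMIs in pIVCL were both in pericentral-leaning cells. The differences between the libraries in these zone ratios were not tested, and 45 of the 107 pericentral-leaning cells of pIVCL lay within 1 UMI of the boundary. Wnt2, a leading zone gene, held 2062 UMIs in LSEC-like cells of Control and 77 in pIVCL, so the split rested on fewer counts there.

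Vascular endothelial-like cells (109 in Control, 75 in pIVCL) fell into 2 clusters with different guidance gene levels. Cluster 18, with 82 Control and 19 pIVCL cells, was led by Adgrg6, Ednrb and Ly6a. Cluster 21, with 27 and 56 cells, was led by Rspo3, Vwf and Bmp4. At the finer clustering, 1 Control and 35 pIVCL cells of cluster 21 grouped as T cell-like, with 454 CPM of Trbc1 and 1930 CPM of Lyve1 in pIVCL, so values of cluster 21 below leave them out (26 and 21 cells remained). Efnb1 (ENSMUSG00000031217, protein-coding, chromosome X, 99136130 to 99148991, plus strand) was at 1492 CPM in cluster 18 and 129 CPM in cluster 21 of Control, and at 1085 and 122 CPM in pIVCL. Efnb2 was at 173 and 219 CPM in cluster 18. In cluster 21 it had 0 UMIs in Control, which allows up to 12.9 CPM (3 counts), and 1 UMI in pIVCL. Ntn4 was at 877 and 819.7 CPM in cluster 18, and at 193 and 244 CPM in cluster 21. Sema6a was at 457 and 496 CPM in cluster 18 against 64.4 and 73.2 CPM in cluster 21. Slit2, a secreted Robo ligand, held 19 and 3 UMIs in cluster 18 and 0 in cluster 21. B-type ephrins, netrin 4 and semaphorin 6A were thus high in 1 cluster and low in the other in both libraries, while Ephb4 (204 and 219 CPM in cluster 18, 262 and 317 CPM in cluster 21) and Nrp1 were present in both.

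Within cluster 21, Plxnd1 and Sema3d differed between the libraries. Plxnd1 was at 958 CPM in Control and 1108 CPM in pIVCL in cluster 18, but at 116 CPM (27 UMIs) and 635 CPM (78 UMIs) in cluster 21, a ratio of 5.47 (3.49 to 8.82). Sema3d held 24 UMIs (103 CPM) in cluster 21 of Control and 0 in pIVCL, which allows up to 24.4 CPM (3 counts). Lyve1, an LSEC and lymphatic gene, was at 0 UMIs in these Control cells and at 1465 CPM in these pIVCL cells, and Stab2, an LSEC gene, at 8.59 and 130.2 CPM. LSEC-like Plxnd1 in pIVCL was at 785 CPM, and the part of LSEC RNA in this difference was not tested.

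**Figure D4:**
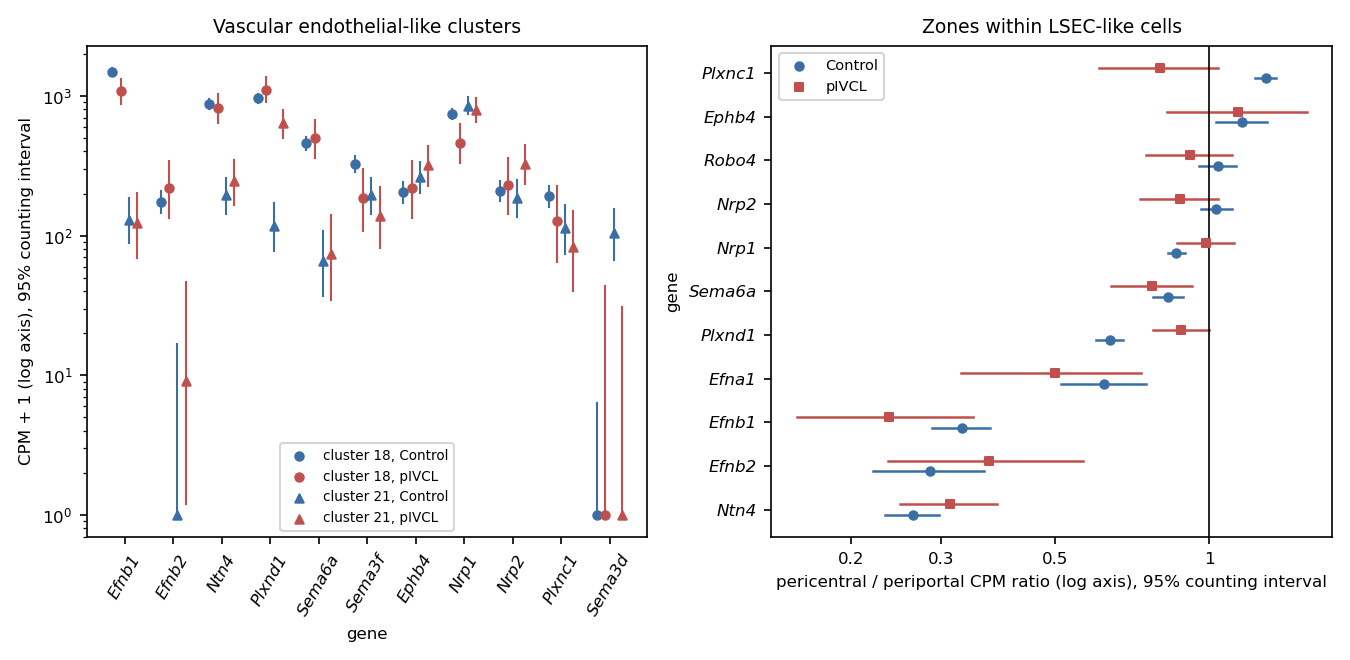
Left, CPM + 1 (log axis) of 11 guidance genes in vascular clusters 18 (circles) and 21 (triangles, without the cells grouped as T cell-like at the finer clustering), Control in blue and pIVCL in red, with 95% counting intervals. Right, the pericentral over periportal CPM ratio within LSEC-like cells (log axis). Efnb1, Efnb2, Ntn4 and Sema6a are high in cluster 18 and low in cluster 21 in both libraries, and Ntn4, Efnb2 and Efnb1 lie left of 1 in the zone panel.

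Summed over both clusters, 27 genes were measured in vascular endothelial-like cells. 2 (7.41%) were past the limit and lower in pIVCL, beside 2.01% of the 8205 measured genes, and 1 (3.70%) was past it and higher, beside 3.29%. The median log2 ratio was -0.23, and -0.01 for all measured genes. Efnb1 was lower, at 1130 CPM in Control and 290.2 CPM in pIVCL. Within cluster 18 alone 0 of 20 measured genes passed the limit, and the Efnb1 levels within each cluster, given above, were nearer to each other than those of the class. Cluster 18, where Efnb1 was high, held 82 of 109 cells in Control and 19 of 75 in pIVCL. Without the cells grouped as T cell-like, the class stood at 1151 and 520.2 CPM of Efnb1 (ratio 0.452). Sema3d was lower, with 24 UMIs in Control and 1 in pIVCL. Sema4a, a class 4 semaphorin, was higher, with 9 and 21 UMIs. Of those 21, 18 were in the 35 cells grouped as T cell-like, and without these cells Sema4a had 9 and 3 UMIs (9.67 and 14.3 CPM) and no longer passed.

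Hepatic stellate-like cells (188 and 103 cells, cluster 8) held several ligands and receptors that were much lower in LSEC-like cells. Ntn1, the netrin that binds Unc5 receptors, was at 319.7 CPM in Control and 248 CPM in pIVCL, against 4.31 and 1.03 CPM in LSEC-like cells. Sema6d, a transmembrane ligand of plexin A1, was at 402 and 252 CPM (111 and 116 CPM in LSEC-like cells), and Plxna1 at 76.4 and 43.3 CPM. Robo2 was at 156 and 70.8 CPM, Epha7 at 176 and 108 CPM, Epha3 at 58.1 and 59.0 CPM, and the ligand Efna5 at 105 and 49.2 CPM. In LSEC-like cells, Epha3 had 0 UMIs in both libraries and Robo2 had 4 and 0. Unc5b, a netrin receptor, was at 71.4 CPM (86 UMIs) in Control and 148 CPM (75 UMIs) in pIVCL, a ratio of 2.07 that stayed inside the limit after 20 CPM was added.

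Of 35 genes measured there, 2 (5.71%) were past the limit and higher in pIVCL, beside 2.24% of the 8954 measured genes, and 1 (2.86%) was past it and lower, beside 1.62%. The median log2 ratio was -0.09, and -0.03 for all measured genes. Plxnc1 was lower, at 278 CPM (335 UMIs) in Control and 106 CPM (54 UMIs) in pIVCL, a ratio of 0.382 (0.281 to 0.510). Ntn4 was higher, at 39.9 CPM (48 UMIs) and 157 CPM (80 UMIs). Slit3, a secreted Robo ligand, was higher, with 1 UMI in Control and 24 in pIVCL (0.830 and 47.2 CPM, ratio 56.9, 9.28 to 2339).

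Transcripts of LSECs were present in some stellate-like cells. The 8 LSEC markers summed to 1916 CPM in Control and 1832 CPM in pIVCL, which was 11.1% and 21.6% of their level in LSEC-like cells. Ntn4 stood at 11.5% and 27.3% of its LSEC-like level. Of the Ntn4 UMIs in stellate-like cells, 44 of 48 in Control and 72 of 80 in pIVCL lay in the 16 and 18 cells with more than 5 LSEC marker UMIs. In the remaining 172 and 85 cells Ntn4 held 4 and 8 UMIs (4.22 and 25.2 CPM) and did not pass the limit. Plxnc1 in those cells was at 185 CPM (175 UMIs) and 53.6 CPM (17 UMIs), a ratio of 0.290 (0.165 to 0.478), so it was lower there too. Unc5b in those cells was at 76.0 and 176 CPM, a ratio of 2.32, and passed the limit that it had not passed in the whole class. The stellate markers themselves were lower in pIVCL, such as Lrat at 1686 and 895 CPM and Colec11 at 4066 and 1736 CPM.

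Finer clustering divided the stellate-like class. A stellate-like sub-cluster held 137 Control and 41 pIVCL cells, a shallow one 39 and 38, and a small one with Acta2 at 2647 and 2235 CPM and Dpt, a fibroblast gene, at 1129 and 1566 CPM, held 12 and 24. The shallow and the small sub-cluster were both named smooth muscle-like, and together they held more cells than the stellate-like one in pIVCL and fewer in Control. The ratios of the whole class therefore compare different mixtures of these sub-clusters. All 24 pIVCL UMIs of Slit3 were in the small sub-cluster, in 8 cells, and the stellate-like sub-cluster held 0 in either library. Slit3 there was at 11.8 CPM (1 UMI) and 153 CPM (97.9 to 227), beside Pi16, another fibroblast gene, at 0 UMIs in Control and 567 CPM in pIVCL. Plxnc1 within the stellate-like sub-cluster was at 306 and 149 CPM, a ratio of 0.488 (0.352 to 0.662) that is just inside the limit after 20 CPM is added. Unc5b within it was at 61.4 and 177 CPM, a ratio of 2.89 (1.99 to 4.18), and passed. Ntn4 (39.6 and 208 CPM) and Robo4 (38.7 and 99.4 CPM) also passed there, both higher. Over the whole class, cells with more than 5 LSEC marker UMIs held 42 of the 43 Robo4 UMIs in Control and 34 of 34 in pIVCL. In the class without those cells, the genes past the limit and higher were Slit3 and Unc5b. Ntn1 was at 352 and 336 CPM and Sema6d at 439.9 and 329 CPM in the stellate-like sub-cluster, nearer to each other than in the whole class.

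**Figure D5:**
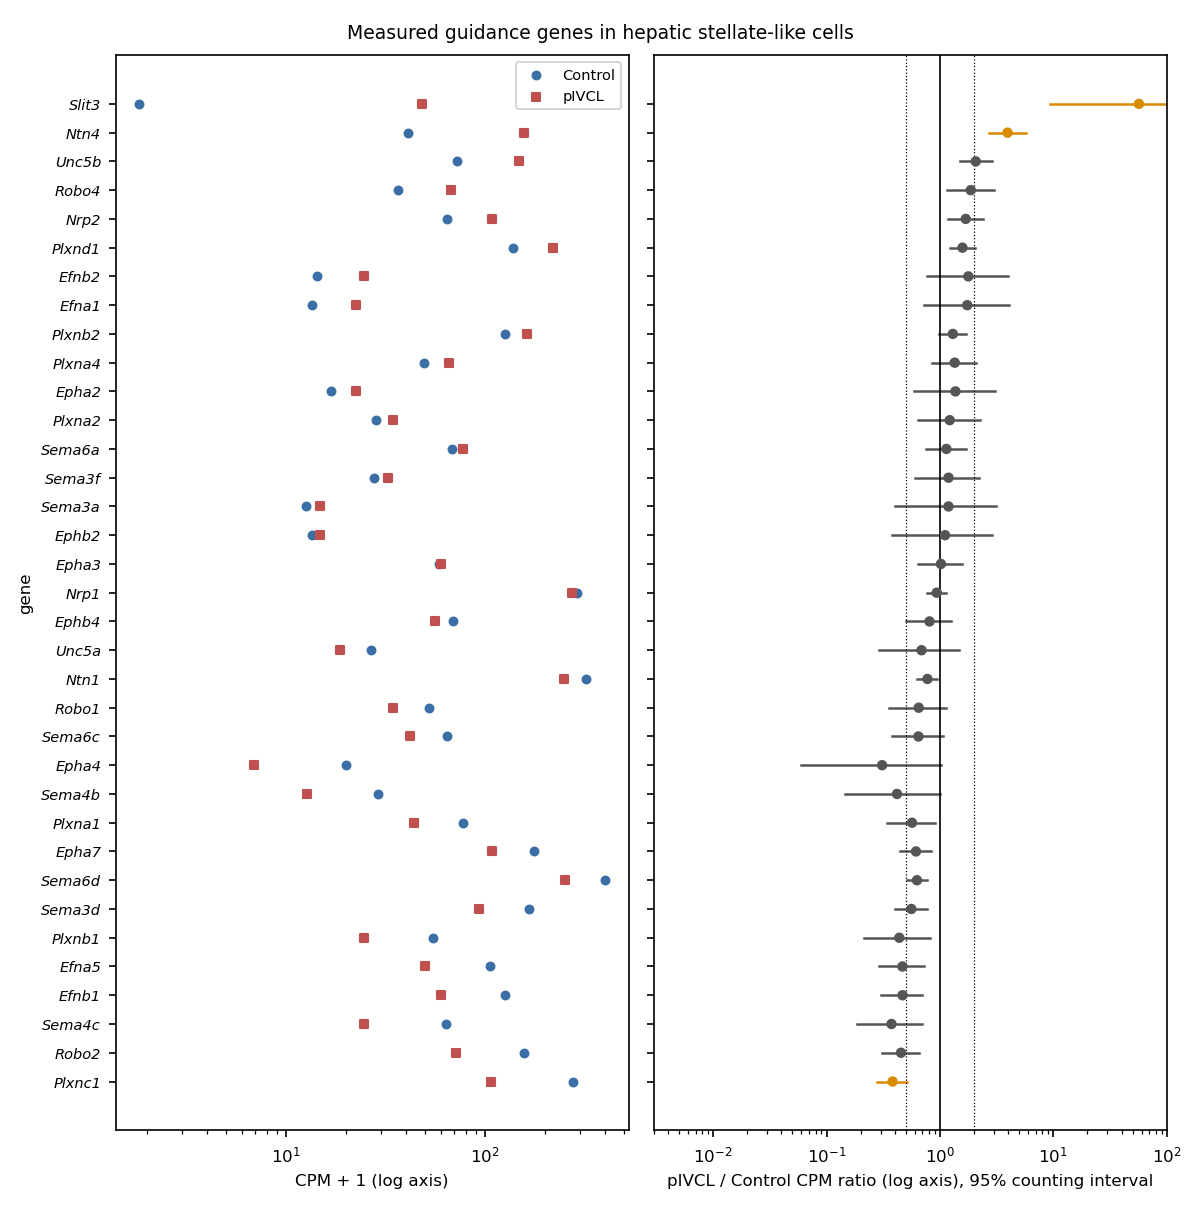
The 35 guidance genes measured in hepatic stellate-like cells: CPM + 1 in Control (circles) and pIVCL (squares) on the left and the pIVCL over Control ratio with its 95% counting interval on the right, on log axes. Orange marks Slit3 and Ntn4 (higher) and Plxnc1 (lower), past the 2-fold limit after 20 CPM is added. The upper end of the Slit3 interval lies beyond the axis, and dotted lines show ratios of 0.5 and 2 without the addition.

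Kupffer-like and hepatocyte-like cells had no guidance gene past the limit over the whole class. In Kupffer-like cells (321 and 771) 20 genes were measured, with 0 past the limit in either direction, beside 2.69% of 9038 measured genes higher and 0.443% lower. Plxnb2, a receptor of class 4 semaphorins, was at 272 and 238 CPM and Sema6d at 186 and 144 CPM. Nrp1 was at 141 and 76.8 CPM and Ntn4 at 22.1 and 6.75 CPM there, while the LSEC markers in these cells summed to 567 and 303 CPM. Of the 31 Control UMIs of Ntn4 there, 22 lay in 21 cells with more than 5 LSEC marker UMIs. In hepatocyte-like cells (324 and 848) 27 genes were measured, with 0 past the limit, beside 0.325% of 11381 measured genes higher and 0.431% lower. Sema4g, a class 4 semaphorin, was at 117 and 129 CPM, and hepatocyte-like cells held 92.3% and 91.0% of its UMIs in kept cells. Kept cells held 891 of its 1335 UMIs in Control and 2293 of 3543 in pIVCL. The libraries shared few hepatocyte-like clusters: cluster 4 held 5 and 676 cells, cluster 12 held 132 and 3, and cluster 14 held 1 cell of pIVCL. In cluster 13, with 49 and 78 cells, Sema4g was at 241 and 598 CPM (ratio 2.48, 1.85 to 3.35), which is past the limit. Cluster 13 was led by Neat1, Mlxipl and Xist and was shallow, with median depths of 5208 and 3432 UMIs against 23080 and 19710 for the class. Over the whole class, Efna1 was at 83.2 and 66.2 CPM, Plxnb2 at 93.0 and 73.7 CPM and Epha1 at 11.7 and 12.8 CPM. Medians of the log2 ratio were -0.22 in Kupffer-like cells (-0.11 for all measured genes) and -0.03 in hepatocyte-like cells (0.00).

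Lymphocytes held class 4 semaphorins. In T cell-like cells (189 and 335), 5 genes were measured and 0 passed the limit, beside 2.60% of 7570 measured genes higher and 0.581% lower. Sema4d, a ligand of B-type plexins, was at 49.8 and 83.6 CPM there, a ratio of 1.68 (1.14 to 2.48), and Sema4a at 90.3 and 66.1 CPM. Most of these cells were in cluster 10 in Control (145 cells, against 74 of pIVCL) and in cluster 7 in pIVCL (261, against 44 of Control). Sema4d was at 40.7 and 83.3 CPM within cluster 10 and at 84.6 and 83.6 CPM within cluster 7. In B cell-like cells (133 and 1030), Sema4d was at 28.4 and 60.5 CPM and Sema4b at 24.1 and 30.7 CPM. 1 of 8 measured genes was past the limit and lower, beside 0.177% of 8482 measured genes, and 0 were higher, beside 1.17%. That gene was Nrp1, with 13 UMIs in Control and 7 in pIVCL, and 12 of the 13 Control UMIs were in 1 cell with more than 5 LSEC marker UMIs. The medians were -0.01 in T cell-like (0.00 for all measured genes) and 0.23 in B cell-like cells (0.06). In NK/ILC1-like cells of pIVCL (89 cells), Sema4d was at 103 CPM and Sema4a at 124 CPM, and Control had 28 such cells, too few to compare. Sema4a was not confined to lymphocytes. Hepatocyte-like cells held more of its UMIs than any other class, 49.6% of those in kept cells of Control and 62.0% in pIVCL. Its hepatocyte-like level was 26.5 CPM in Control.

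Some guidance genes were also seen in smaller classes. Sema3c, a ligand of neuropilins, was at 487 CPM (70 UMIs) in the 45 mesothelial-like cells of Control and 216 CPM (19 UMIs) in the 21 of pIVCL. Ephb1 was at 69.5 and 68.2 CPM there. In cholangiocyte-like cells (35 and 57), Plxnb1, a receptor of semaphorin 4D, was at 78.8 and 97.0 CPM, Sema5a at 55.2 and 70.9 CPM and Efna4 at 35.5 and 59.7 CPM. Nrp2 was at 1193 CPM (33 UMIs) in the 4 lymphatic endothelial-like cells of Control and 569 CPM (52 UMIs) in the 17 of pIVCL. Epha2 was at 89.1 and 86.9 CPM in plasmacytoid dendritic-like cells (24 and 36). These classes were under 50 cells in at least 1 library, and their values are given without a comparison.

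Among classes of at least 50 cells in a library, some ligands and their known receptors had their highest levels in different classes. Sema4d was highest in T cell-like cells of Control and NK/ILC1-like cells of pIVCL, and its receptor Plxnb2 in Kupffer-like cells of both. Plxnb1, another receptor of Sema4d, was highest in stellate-like cells of Control (54.0 CPM) and cholangiocyte-like cells of pIVCL. Control had 28 NK/ILC1-like and 35 cholangiocyte-like cells, so neither class could lead there. In those 35 cholangiocyte-like cells Plxnb1 was above its stellate-like level. Ntn1 and Unc5b had their highest levels in stellate-like cells in both libraries, whereas Ntn4 was endothelial. Sema3f and its receptors Nrp1 and Nrp2 were highest in endothelial classes, as were Efnb2 and Ephb4, though Efnb2 was at or near 0 in vascular cluster 21. Slit2 (30 UMIs in all) was low wherever it was seen, and its receptors Robo1, at 37.8 and 39.7 CPM in LSEC-like cells, and Robo4 did not differ there beyond the counting interval.

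Of 55 other genes of these pathways, 21 co-receptors and other ligands or receptors and 34 cytoplasmic effectors, most lay inside the limit. In LSEC-like cells, 1 of 15 measured genes of the first group was past it, Vegfc, a lymphatic growth factor that binds neuropilin 2, at 7.18 CPM in Control and 91.2 CPM in pIVCL. Of 27 measured effectors, 1 was past the limit and higher and 1 was past it and lower, and the lower was Tiam1, with 408 and 3 UMIs (65.1 and 1.55 CPM). The shares of all measured genes past the limit there were 2.03% higher and 1.13% lower. In vascular endothelial-like cells 2 of 10 and 1 of 22 passed, all lower in pIVCL, beside 2.01% of all measured genes. They were Vegfc at 164 and 56.7 CPM, Flrt2, a ligand of Unc5 receptors, at 191 and 32.7 CPM, and Rras, a GTPase that plexins act on, at 281 and 113 CPM. All 3 are summed over both clusters, the cells grouped as T cell-like included. The part of the different cluster mix of the libraries in these 3 values was not tested. In the other 5 classes 0 genes of either group passed the limit.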

How the data were processed

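The authors deposited gene-by-barcode UMI count matrices, 1 per library, made with Cell Ranger 3.0.2 on mm10 per the submitters' processing notes; 10x 3' chemistry is per the labels' protocols. Cells with at least 500 UMIs, 200 genes and at most 25% mitochondrial UMIs were kept. Clusters (Leiden, resolution 1, 30 principal components, 20 neighbours; scanpy 1.11.5, leidenalg 0.10.2, igraph 0.11.9) were made without the guidance and mitochondrial genes and named from marker lists. Scrublet marked 8 and 3 cells, which were left out; these are too few for the caller to have worked, so most doublets will remain. Class sums were divided by class totals (CPM) and ratios taken on log2(CPM + 20), which understates changes of low genes. Intervals are exact Poisson, Clopper-Pearson or conditional binomial (scipy 1.17.1), at 95%. The scripts were tested on simulated data. With 1 library per group there are 0 residual degrees of freedom, so no test was run.

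Members and lists were chosen with earlier results of these data known. Genes named were those past the limit in a class, the most abundant of each role, known ligand and receptor pairs and the endothelial zone genes; other genes named were chosen after their values were seen. Alternatives covered the pseudocount (5), the UMI minimum (50 or none), stricter cells (1000 UMIs, 10% mitochondrial), size factors, class totals, per-cell means, per-cell classes, resolution 2 and thinning to 2000 UMIs. Positions are from GENCODE and promoters from RefSeq GRCm38.p6. The result of 1 effector gene is not reported here.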

Additional observations from a re-analysis of the deposited data

Results flagged for a closer look

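Ntn4, the basement membrane netrin, differed in opposite directions between classes. In hepatic stellate-like cells its log2 ratio of pIVCL over Control was 1.57 (39.9 and 157 CPM). In Kupffer-like cells it was -0.66 (22.1 and 6.75 CPM), and in vascular endothelial-like cells -0.84 (693 and 378 CPM). The difference between the classes was not tested, since each value compares 1 library with 1 library. Cells with more than 5 LSEC marker UMIs held 72 of the 80 stellate-like Ntn4 UMIs in pIVCL and 22 of the 31 Kupffer-like ones in Control. Within vascular cluster 18 alone Ntn4 stood at 877 and 819.7 CPM. In cluster 21, without the cells grouped as T cell-like, it stood at 193 and 244 CPM, so neither cluster was as far apart as the class. Cluster 18, where Ntn4 was high, held 82 vascular cells of Control and 19 of pIVCL.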

How the results depend on the processing

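Counts and medians below refer to guidance genes past the 2-fold limit and to their log2 ratios. Shares of all measured genes, where given, are those past the limit at the same setting. A count without such a share does not set guidance genes apart from other genes. In LSEC-like cells the count of 4 stayed between 3 and 5 under 9 other settings. With a pseudocount of 5 CPM the counts were 2 in B cell-like (main value 1), 9 in stellate-like (3), 6 in Kupffer-like (0) and 7 in vascular endothelial-like cells (3). At that setting the shares of all measured genes were also larger than in the main analysis. They were 6.05% higher and 0.979% lower in B cell-like, 4.42% and 4.94% in stellate-like, and 5.18% and 2.88% in Kupffer-like cells. With at least 50 summed UMIs the counts were 0 in B cell-like and 1 in vascular endothelial-like cells. Stricter cells gave counts of 0 in B cell-like, 6 in stellate-like (median -0.37 against -0.09) and 1 in hepatocyte-like cells (main value 0, median 0.19 against -0.03). Shares of all measured genes were then 2.41% higher and 1.93% lower in stellate-like, and 4.49% and 3.51% in hepatocyte-like cells. Classes from marker UMIs per cell gave 0 in B cell-like cells and a hepatocyte-like median of -0.10. Means of per-cell CPM gave 0 in B cell-like, 6 in stellate-like and 1 in Kupffer-like cells. Beside these, 3.38% of all measured genes were higher and 3.80% lower in stellate-like, and 1.62% and 0.653% in Kupffer-like cells. Class totals without mitochondrial and the 50 top genes gave 5 in stellate-like cells, beside 2.55% of all measured genes higher and 2.29% lower. Resolution 2 gave 0 in B cell-like cells and 12 in T cell-like cells (main value 0, median 1.34 against -0.01), a class that then takes in the 36 mixed cells of vascular cluster 21. It kept the leading class of 21 of 53 genes in pIVCL. The stellate-like and vascular endothelial-like classes, which led 16 and 5 genes of pIVCL in the main analysis, were then under 50 cells. They could therefore not lead any gene at resolution 2.

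Other alternatives were chosen after seeing the data. Stellate-like cells with at most 5 LSEC marker UMIs had a median of -0.51. Vascular cluster 18 alone had a count of 0. Cluster 21 alone had a count of 5 with a median of 0.62, here over all its 27 Control and 56 pIVCL cells, including those grouped as T cell-like. Sema4a in vascular endothelial-like cells reversed to -0.19 in cluster 18 alone and to -0.17 in the cells of cluster 21 also named vascular at the finer clustering. For the other moves the cause was not tested. Of 1105 single-gene values under alternatives, 962 stayed within their counting interval or call, 141 moved and 2 reversed. Not run were the stellate-like class at resolution 2 and the vascular class at resolution 2 and with per-cell classes, each under 50 cells in a library. No paired analysis was possible because each group is 1 library. Depth limited the comparison to genes with at least 20 UMIs in a class, so no difference was read for rarer ones.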
